A study of Mus musculus with 6 samples.

Results

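The genes described here are 10 transcription factor genes, the Fos family (Fos, Fosb, Fosl1, Fosl2), the Jun family (Jun, Junb, Jund), Atf3, Egr1 and Egr2, taken by name from 23699 rows of each expression table. Each of the 10 had 1 row, and 9 had at least 2 FPKM (a fragment count scaled to transcript length and to library size) in at least 2 of 6 libraries. Fosb was below 2 FPKM in all 6 libraries and was not tested. The RNA came from peritoneal macrophages, phagocytes of the abdominal cavity, of C57Bl/6 mice, either wild type (WT) or of the genotype miR-221/222 -/Y, which lacks an X-linked microRNA pair (KO). Of each genotype, some cells had no treatment (naive), some had lipopolysaccharide (LPS) at 1000 ng/ml for 4 h (LPS), and some met it a second time (tolerized). The tolerized cells received 10 ng/ml for 15 h, a 2 h rest after washing, and only then the 4 h exposure at 1000 ng/ml. Each group was 1 library here, although the series describes triplicates, and whether libraries pooled several mice is not given in the sources used here. The knockout is labelled as a whole-animal genotype, with no cell type or promoter named.

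AP-1 is a dimer of basic leucine zipper proteins. Jun proteins pair with each other or with Fos proteins, and the dimer binds a short palindromic DNA element. Atf3 belongs to the same zipper superfamily and is known as a stress-induced factor that limits Toll-like receptor output in macrophages, while Egr1 and Egr2 are zinc finger factors. Many of these genes are immediate early genes, switched on without new protein synthesis when mitogen-activated protein (MAP) kinases phosphorylate factors already bound at their promoters. LPS, an outer membrane glycolipid of Gram-negative bacteria, starts that cascade through Toll-like receptor 4. Tolerance is an altered response of cells that have met LPS before.

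The 3p arms of the microRNAs removed in the KO share the seed (bases 2 to 8, in capitals), and they are given because that seed sets which transcripts they can target. Both were taken from RefSeq (GRCm38.p6).
mmu-miR-221-3p: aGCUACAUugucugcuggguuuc
mmu-miR-222-3p: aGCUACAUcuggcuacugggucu
Of the 10 genes, Fos had a match to this 3p seed in its longest annotated 3′ UTR (GENCODE M21, GRCm38) and the other 9 had none. The match was an 8mer, ATGTAGCA, that began at base 203 after the stop codon in a UTR of 815 bases, and it is shown in capitals with 10 bases on either side.
Fos 3′ UTR site: tcttccagagATGTAGCAaaaacaaaac
Among 9002 tested genes with an annotated UTR, 3.60% had such an 8mer and 18.4% had an 8mer or a 7-base match. A match is a description of the letters and does not show that the microRNAs act there, and 5p arms were not searched.

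Promoters in the RefSeq table covered 250 bases before to 50 bases after a transcription start, and 8 of the 10 genes had at least 1. Those of Fos, Egr2, Junb and Fosl2 are shown because these 4 passed the test with LPS in opposite directions, the first pair falling and the second rising. Capitals mark matches on either strand to TGACTCA (AP-1), TGACGTCA (cAMP response element), its core TGACGT, TGACATCA (an AP-1 variant), GCGNGGGCG (EGR), TATAAA, the CArG box bound by serum response factor, and the NF-kappaB site. All 4 are GRCm38.p6 sequences, 5′ to 3′ in the gene's direction.
Fos, chr12:85473640-85473939, plus strand: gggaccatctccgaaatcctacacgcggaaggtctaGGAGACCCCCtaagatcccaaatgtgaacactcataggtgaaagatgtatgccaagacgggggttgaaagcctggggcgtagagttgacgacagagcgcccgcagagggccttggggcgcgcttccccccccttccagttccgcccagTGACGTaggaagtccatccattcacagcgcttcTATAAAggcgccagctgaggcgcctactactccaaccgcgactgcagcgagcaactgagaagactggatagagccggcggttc
Egr2, chr10:67537619-67537918, plus strand: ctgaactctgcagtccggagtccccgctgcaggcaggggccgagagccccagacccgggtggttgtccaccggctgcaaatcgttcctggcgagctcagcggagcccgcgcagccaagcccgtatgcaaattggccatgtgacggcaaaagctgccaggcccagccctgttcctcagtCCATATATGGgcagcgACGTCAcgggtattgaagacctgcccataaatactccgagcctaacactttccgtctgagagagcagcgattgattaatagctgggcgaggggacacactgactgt
Junb, chr8:84978699-84978998, minus strand: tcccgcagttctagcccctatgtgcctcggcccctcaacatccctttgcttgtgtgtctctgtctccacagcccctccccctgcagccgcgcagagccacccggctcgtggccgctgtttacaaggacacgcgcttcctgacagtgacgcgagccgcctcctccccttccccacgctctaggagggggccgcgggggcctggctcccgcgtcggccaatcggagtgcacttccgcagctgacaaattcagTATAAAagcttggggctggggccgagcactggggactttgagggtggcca
Fosl2, chr5:32136222-32136521, plus strand: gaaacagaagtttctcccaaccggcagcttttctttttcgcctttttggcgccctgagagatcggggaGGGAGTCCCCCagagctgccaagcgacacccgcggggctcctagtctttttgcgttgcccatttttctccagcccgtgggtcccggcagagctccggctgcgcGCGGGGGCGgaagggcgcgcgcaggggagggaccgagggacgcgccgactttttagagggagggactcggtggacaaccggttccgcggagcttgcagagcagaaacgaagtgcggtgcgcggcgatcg
The core TGACGT lay at -66 to -61 in Fos and at -56 to -51 in Egr2, counted from the start site at 0, and is found in 7.51% of 32851 promoter windows. Egr2 had a CArG box at -72 to -63, a motif in 1.63% of windows, and 4 of its 5 annotated start sites had one in the window. The windows that begin at 67537619, 67537620 and 67537680 overlap and hold the same box, while that at 67537316 holds another. The Egr2 window at 67535249 had no CArG box and had overlapping NF-kappaB matches between -117 and -107. Fos had TATAAA at -33 to -28 and Junb at 0 to 5, against 13.6% of windows. Fosl2 had an EGR match at -79 to -71 (5.55% of windows) and 2 overlapping NF-kappaB matches between -182 and -172. Fos also had an NF-kappaB match at -214 to -205, and 8.46% of windows hold that motif. None of the 4 windows held TGACTCA or TGACGTCA, which occur in 5.20% and 1.79% of windows.

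The libraries summed to 573914 to 681618 FPKM, and the deposited intervals spanned a median of 5.03% to 5.97% on either side of the value from 10 FPKM upward, which covers counting error only. Pan-macrophage markers were abundant in every library, with a summed level of 11639 to 48948 FPKM, most of it Lyz2 (8538 to 45135 FPKM). B cell markers were present too, at 295 to 780 FPKM in sum, with mast cell markers at 106 to 199.9, T and NK cell markers at 12.9 to 41.7 and large peritoneal macrophage markers at 264 to 537 FPKM. Neutrophil, eosinophil and fibroblast or mesothelial markers summed to 2.32 to 9.60, 0.492 to 3.26 and 3.88 to 30.4 FPKM, and the neutrophil granule gene Ngp was at 0 in all 6 libraries. The median gene was lower with LPS than in naive cells, by 0.76 on the scale of log2(FPKM + 1), the scale of all differences below. Rescaling each library to a common median ratio left a median difference of -0.19, so calls are also given after that rescaling where they change.

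**Figure D1:**
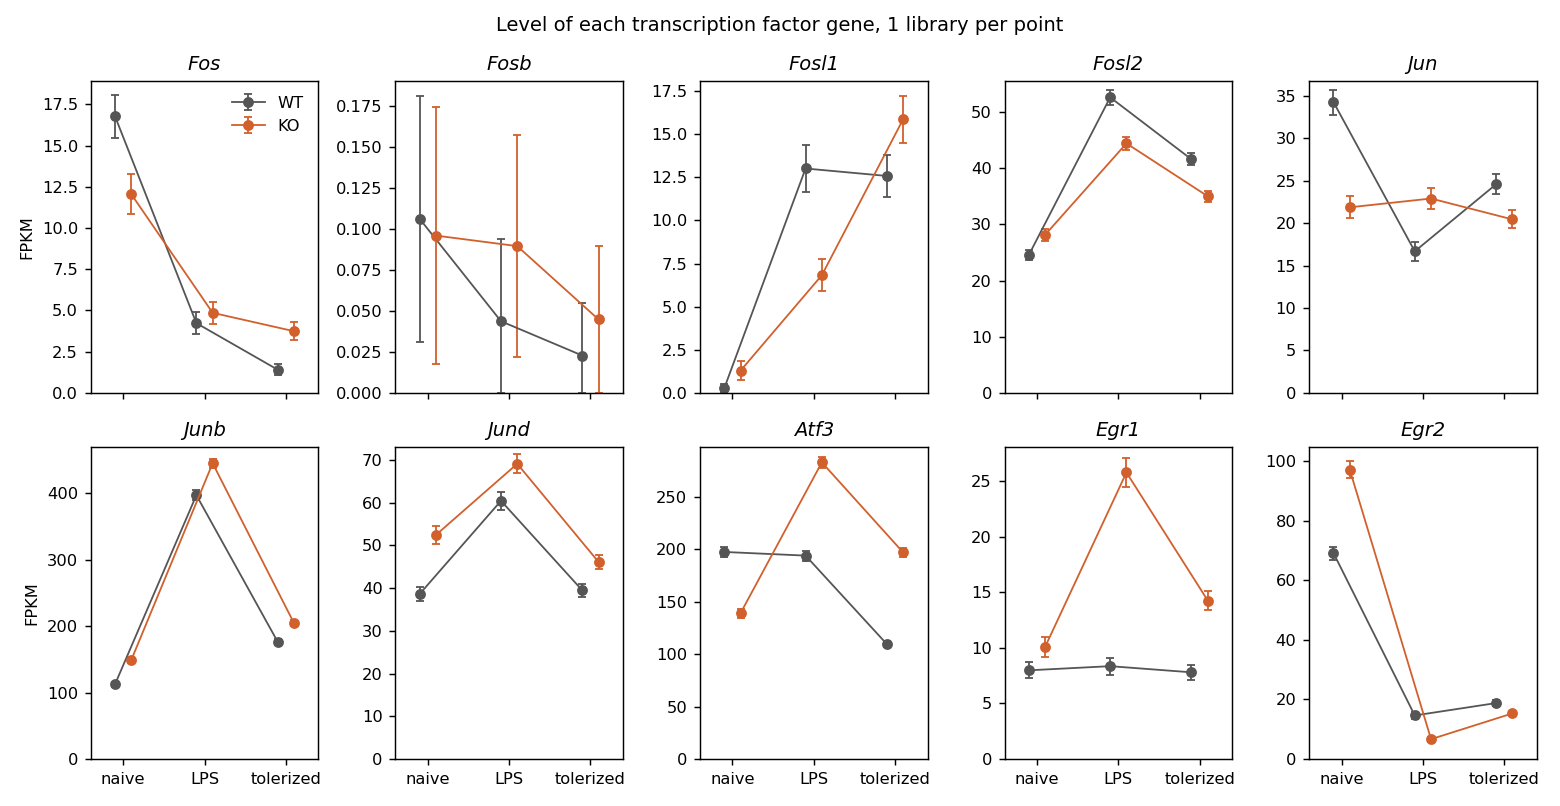
Level of each of the 10 genes in FPKM (y axis, linear from 0, a different range in each panel) in naive, LPS and tolerized cells. Each point is 1 library, joined by lines within a genotype, grey for WT and orange for KO, and bars are the deposited intervals, which cover counting error only. Fos and Egr2 were highest in the naive libraries, Junb and Fosl2 in the LPS libraries, and Fosb stayed under 0.11 FPKM.

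With 4 h of LPS the Fos family transcripts moved in opposite directions. Fos, which encodes the founding partner of Jun in AP-1, fell, while Fosl1 and Fosl2, which encode the Fos-related proteins Fra-1 and Fra-2, rose. Fos (chromosome 12, 86814850 to 86818219 of mm9) stood in WT cells at 16.8 FPKM (naive), 4.23 (LPS) and 1.40 (tolerized). In KO cells it stood at 12.05, 4.85 and 3.74 FPKM in the same order. Both naive libraries were above all 4 others, and the deposited intervals of WT LPS, KO LPS and KO tolerized cells overlapped in turn. Fos fell by 1.46 ± 0.34 with LPS (SE, 2 libraries per condition; limma adjusted p = 0.010). The call did not hold after rescaling (-0.90, adjusted p = 0.071), without the WT naive library (-0.95, adjusted p = 0.053) or without the KO LPS library (-1.41, adjusted p = 0.062).

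Fosl1 (chromosome 19, 5447697 to 5455938) was nearly silent in naive cells. In WT it went from 0.271 FPKM, about 6.62 fragments as implied by the deposited interval, to 13.0 FPKM with LPS and 12.6 FPKM after tolerization. In KO cells it stood at 1.28 FPKM (about 23.0 fragments), 6.82 and 15.9 FPKM. The 4 libraries with LPS lay above both naive libraries, and Fosl1 passed the filter on low values through those 4. It rose by 2.62 ± 0.39 (adjusted p = 0.0020). Fosl2 (chromosome 5, 32438844 to 32460212) was already expressed without LPS. Its WT levels were 24.6, 52.6 and 41.6 FPKM, naive first, and its KO levels 28.2, 44.4 and 35.0 FPKM. All 4 libraries with LPS were above both naive ones. The rise of Fosl2 was 0.85 ± 0.22 (adjusted p = 0.015), 0.64 without the WT naive library (adjusted p = 0.084) and 0.75 without WT LPS (adjusted p = 0.082).

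Fosb (chromosome 7, 19888044 to 19895394), the closest relative of Fos, was listed at 0.106, 0.0437 and 0.0227 FPKM in WT and at 0.0960, 0.0896 and 0.0448 FPKM in KO naive, LPS and tolerized cells. These values rest on 2 to 8 fragments per library, too few to read a fold. Of the 9 pairs of libraries, the counting interval excluded 0 for WT tolerized against WT naive cells, at -0.11 (-0.22 to -0.0074), and spanned 0 for the other 8.

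In the Jun family, Junb led in every library. Junb (chromosome 8, 87500807 to 87502647), which encodes a Jun protein that can act as an inhibitor or an activator of AP-1 genes, stood in WT at 112.7 (naive), 397 (LPS) and 177 FPKM (tolerized). In KO cells it stood at 149, 446 and 205 FPKM. The conditions did not overlap, with both naive libraries lowest, both tolerized libraries between and both LPS libraries highest. Junb rose by 1.69 ± 0.25 with LPS (adjusted p = 0.0020), and the call held in all 10 alternatives. Jund (chromosome 8, 73221637 to 73224515), known for steady expression in many cells, stood at 38.6, 60.5 and 39.5 FPKM in WT and at 52.5, 69.1 and 46.1 FPKM in KO cells. It was highest with LPS in each genotype, with a difference of 0.51 ± 0.21 (adjusted p = 0.072), or 1.14 after rescaling (adjusted p = 0.0050). Jun (chromosome 4, 94715726 to 94718913), which encodes c-Jun, stood at 34.3, 16.7 and 24.6 FPKM in WT and at 21.9, 22.9 and 20.4 FPKM in KO cells. The WT libraries spread widely, whereas the intervals of the 3 KO libraries overlapped from each to the next. Jun differed by -0.47 ± 0.29 with LPS (adjusted p = 0.20), by 0.15 after rescaling, and by -0.90 without the KO LPS library (adjusted p = 0.045).

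Atf3 and the EGR genes did not move together. Egr2 (chromosome 10, 67000616 to 67004936) stood in WT at 69.2 (naive), 14.6 (LPS) and 18.8 FPKM (tolerized). In KO cells it stood at 97.2, 6.63 and 15.3 FPKM. Both naive libraries were far above the other 4. Egr2 fell by 2.93 ± 0.36 with LPS (adjusted p = 0.0011), the largest fall among the 9 tested genes.

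Egr1 (chromosome 18, 35020860 to 35024610), a growth factor-induced gene in many cell types, was flat in WT at 7.98, 8.35 and 7.80 FPKM, with overlapping intervals. In KO cells it stood at 10.1, 25.8 and 14.3 FPKM, all above the WT values. The mean difference with LPS was 0.67 ± 0.31 (adjusted p = 0.10). It passed the threshold after rescaling (1.26, adjusted p = 0.024). The difference was 1.09 without WT naive and 1.15 without WT LPS, and the lowest among the 10 alternatives was 0.18. Atf3 (chromosome 1, 192994175 to 193007212) was abundant throughout, in WT at 198 (naive), 194 (LPS) and 109.6 FPKM (tolerized). KO cells had 139, 283 and 197 FPKM. Its highest level was in KO LPS and its lowest in WT tolerized cells, and the intervals of WT naive, KO tolerized and WT LPS cells overlapped in turn. The difference with LPS was 0.50 ± 0.37 (adjusted p = 0.28), 1.14 after rescaling (adjusted p = 0.045) and 1.09 without WT naive (adjusted p = 0.021).

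Of the 9 tested genes 3 rose and 2 fell with LPS, against 8.74% and 54.4% of all 10136 genes tested by limma with Benjamini-Hochberg adjustment. After rescaling 6 of the 9 rose and 1 fell, where 1765 of all 10136 genes rose and 3073 fell. The median difference of the 9 was 0.51 before rescaling, and that of all genes -0.76. By size alone, at least 2-fold on the scale of log2(FPKM + 1), Fosl1, Fosl2 and Junb were higher and Fos and Egr2 lower with LPS in WT, where 8.15% of genes were higher and 39.8% lower. In KO cells Fosl1, Junb, Atf3 and Egr1 were at least 2-fold higher and Fos and Egr2 lower, against 6.96% and 42.0% of genes. After rescaling Jund (1.19) joined those higher in WT, Fosl2 (1.33) and Jund (1.09) joined those higher in KO, and Fos in KO was at -0.53 and no longer 2-fold lower. Rescaling also raised the number of all genes 2-fold higher and cut the number lower, as given in the closing section on processing. B cell markers summed to 780 FPKM without and 329 FPKM with LPS in WT, and to 606 and 295 FPKM in KO cells. Pan-macrophage markers summed to 48948 and 23534 FPKM in WT and to 39424 and 18809 FPKM in KO cells. Most of each sum was Lyz2, at 45135 and 19661 FPKM in WT and 35949 and 16240 FPKM in KO cells. Of the 8 pan-macrophage markers, 7 were lower and 1 higher with LPS in WT, and 5 were lower and 3 higher in KO. Large peritoneal macrophage markers summed to 537 and 502 FPKM in WT and to 364 and 411 FPKM in KO cells, where Prg4 (106 and 300 FPKM in WT, 172 and 227 in KO) and Timd4 were higher while 7 of 9 markers in WT and 6 of 9 in KO were lower with LPS, among them Vsig4 (158 and 45.2 FPKM in WT). The part of these markers in the falls of Fos and Egr2 was not tested, and in bulk RNA fewer cells of a type and less RNA per cell cannot be told apart. Without the filter on low values, Fos, Fosl1, Fosl2 and Egr2 missed the threshold (adjusted p = 0.14, 0.074, 0.063 and 0.052).

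**Figure D2:**
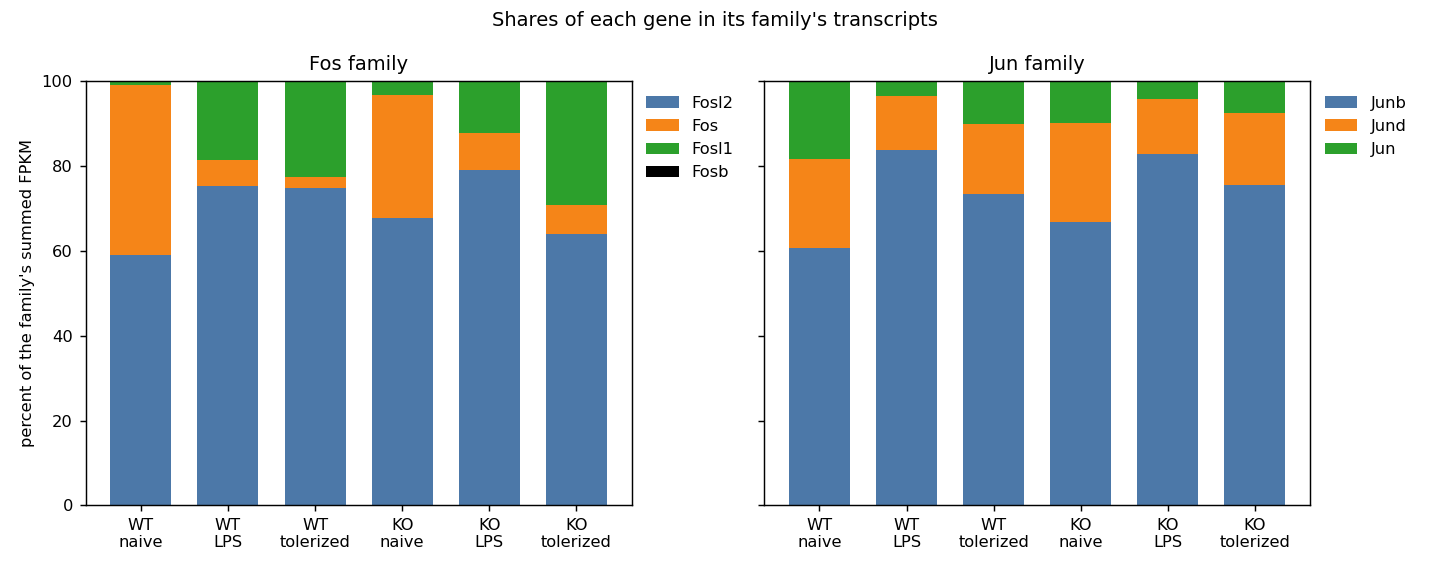
Share of each gene in the summed FPKM of the Fos family (left) and the Jun family (right), in percent, for each of the 6 libraries (x axis). Fosl2 and Junb made up the largest share of their family in every library, and the share of Fos was 40.2% in WT naive and 2.52% in WT tolerized cells.

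Because FPKM is scaled to transcript length, the members of each family can be set against each other. In the bars of family shares, Fosl2 made up 58.9% of Fos family transcripts in WT naive cells and 67.7% in KO naive cells, 75.3% and 79.1% with LPS, and 74.8% and 64.1% in tolerized cells. Fos itself made up 40.2% and 29.0% in naive cells and 2.52% to 8.63% in the other 4 libraries. Fosl1 went from 0.649% and 3.09% in naive cells to 18.6% and 12.1% with LPS and to 22.6% and 29.0% in tolerized cells of WT and KO. Junb took 60.7% and 66.8% of Jun family transcripts in naive cells, 83.7% and 82.9% with LPS, and 73.4% and 75.5% in tolerized cells. Jun family transcripts summed to 4.33 to 9.56 times those of the Fos family, with the highest ratios in the LPS libraries (6.79 in WT and 9.56 in KO). These shares describe single libraries of RNA, not protein.

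Of the 9 genes, Junb passed the test between tolerized cells and cells given LPS once. Its tolerized level was 0.444 of the LPS level in WT and 0.460 in KO cells. Junb fell by 1.14 ± 0.25 (adjusted p = 0.017), and the call was lost when any of the 4 LPS and tolerized libraries was left out (adjusted p = 0.091 without WT LPS, 0.089 without WT tolerized, 0.077 without KO LPS and 0.12 without KO tolerized) and without the filter on low values (adjusted p = 0.081). Jund moved by -0.59 ± 0.21 (adjusted p = 0.064) and by -1.05 after rescaling (adjusted p = 0.021). Fosl2 differed by -0.33 ± 0.22 (adjusted p = 0.26) and by -0.79 after rescaling (adjusted p = 0.044). For Atf3 the difference was -0.67 ± 0.37 (adjusted p = 0.19), with an adjusted p of 0.048 when either naive library was left out.

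Fos after tolerization stood at 0.332 of its LPS level in WT and at 0.770 in KO. The difference was -0.71 ± 0.34 (adjusted p = 0.14), and -1.27 without the KO tolerized library (adjusted p = 0.028). Egr2 differed by 0.72 ± 0.36 (adjusted p = 0.15), Fosl1 by 0.53 ± 0.39 (adjusted p = 0.31), Egr1 by -0.45 ± 0.31 (adjusted p = 0.27) and Jun by 0.19 ± 0.29 (adjusted p = 0.62).

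In this contrast 0 of the 9 genes rose and 1 fell, against 36.8% and 4.32% of all genes. After rescaling 0 of the 9 rose and 3 fell, where 1215 of all 10136 genes rose and 750 fell. The members' median was -0.45 and that of all genes 0.51. By size, Fos and Junb were at least 2-fold lower in WT, where 20.8% of genes were higher and 4.54% lower. In KO cells Junb was lower and Fosl1 and Egr2 higher, against 24.0% of genes higher and 4.3% lower. After rescaling 0 were higher in either genotype and 4 were lower in each, Fos, Junb, Jund and Atf3 in WT and Junb, Jund, Atf3 and Egr1 in KO, with Fosl1 at 0.64 and Egr2 at 0.63 in KO. Rescaling also cut the number of all genes 2-fold higher and raised the number lower, as given in the closing section on processing. This contrast uses the same LPS libraries as that of LPS and naive cells.

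Against naive cells, tolerized cells differed in Fosl1, Fos and Egr2. Fosl1 rose by 3.15 ± 0.39 (adjusted p = 0.0045), Fos fell by 2.17 ± 0.34 (adjusted p = 0.0079) and Egr2 fell by 2.21 ± 0.36 (adjusted p = 0.0088). These 3 calls held in 9 of 10 alternatives each and were lost without the filter on low values (adjusted p = 0.12, 0.15 and 0.15). Junb stood between its naive and LPS levels and differed from naive by 0.55 ± 0.25 (adjusted p = 0.16). Fosl2 differed by 0.52 ± 0.22 (adjusted p = 0.13), and Jund by -0.08 ± 0.21 (adjusted p = 0.82). In all 1 gene rose and 2 fell, against 7.41% and 19.8% of all genes, with a members' median of -0.08 and an all-gene median of -0.22. By size the same 3 genes passed in each genotype, Fosl1 higher and Fos and Egr2 lower. In WT 7.95% of genes were higher and 16.8% lower, and in KO 6.32% and 13.2%. In WT and KO tolerized cells B cell marker sums were 484 and 629.7 FPKM, large peritoneal macrophage marker sums 264 and 391, pan-macrophage sums 17589 and 11639, and fibroblast or mesothelial sums 17.9 and 30.4 FPKM. In naive cells the last were 5.84 and 8.68 FPKM, and in LPS cells 3.88 and 5.60 FPKM. Dcn made up 10.3 and 28.1 FPKM of the tolerized fibroblast or mesothelial sums. Of these 7 markers 4 were higher and 3 lower than naive in WT, and 2 higher and 5 lower in KO. Lyz2 made up 13872 and 8538 FPKM of the tolerized pan-macrophage sums. Of the 8 pan-macrophage markers 4 were higher and 4 lower than naive in each genotype. The part of these markers in the differences of tolerized cells from naive or LPS cells was not tested.

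**Figure D3:**
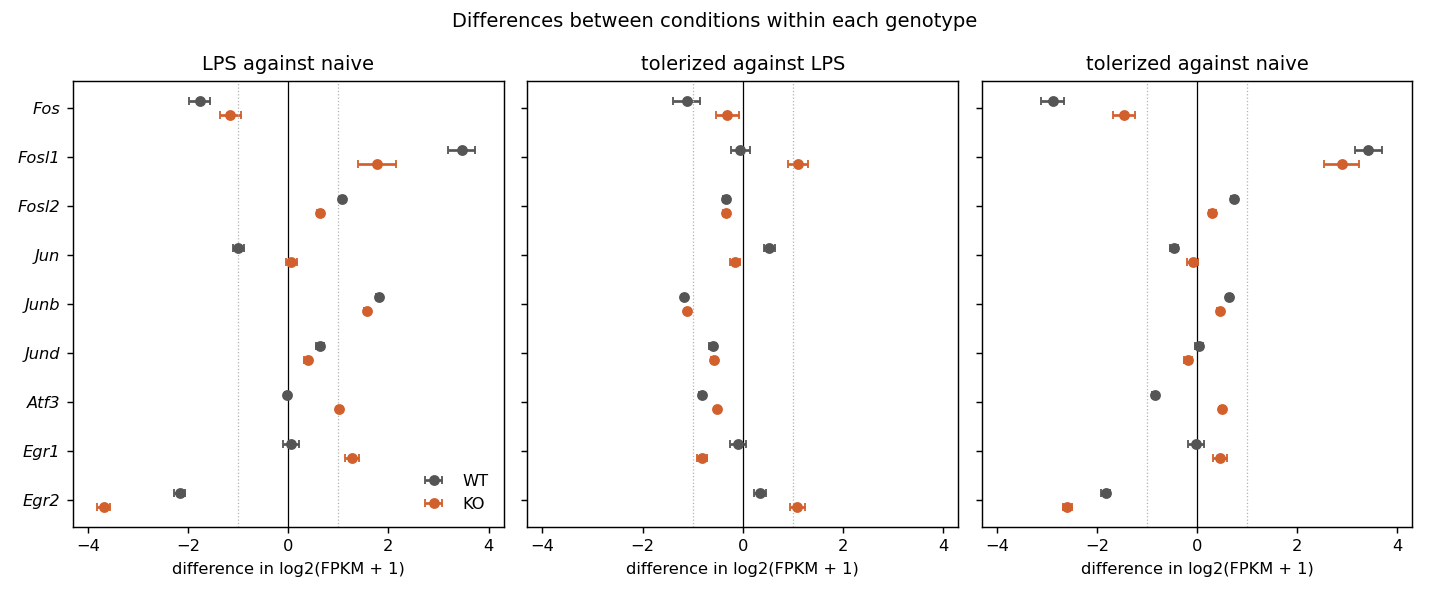
Difference in log2(FPKM + 1) between conditions (x axis) for the 9 genes expressed at 2 FPKM or more in at least 2 libraries, for WT (grey) and KO (orange), 1 library against 1 in each point. Bars are 95% intervals from the deposited bounds and cover counting error only, and dotted lines mark 2-fold. Atf3 with LPS lay at -0.03 in WT and 1.02 in KO. In every panel Fos, Fosl2, Junb and Egr2 lay on the same side of 0 in both genotypes.

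Where a gene had 2 FPKM in either library, the ratios between genotypes farthest above 1 were those of Egr1 and Fos, with Egr2 and Fosl1 lower in KO with LPS. With 1 library per group the difference between genotypes in a condition had no replicate check, and the intervals here cover counting error only. Egr1 was higher in KO than in WT in 3 of 3 conditions, at a ratio of 1.27 in naive, 3.09 in LPS and 1.83 in tolerized cells. Over all conditions it differed by 0.87 ± 0.25 (SE, 3 libraries per genotype; adjusted p = 0.52). Egr2 ran the other way with LPS, at 0.454 of the WT level and a difference of -1.03 (-1.19 to -0.88), and lay at 1.41 times WT in naive cells. Large peritoneal macrophage markers also differed between the genotypes, with 7 of 9 lower in KO than in WT naive cells. Vsig4 stood at 158 FPKM in WT and 1.87 FPKM in KO naive cells, F5 at 47.4 and 3.39, Alox15 at 146.9 and 48.9 and Gata6 at 13.0 and 4.88 FPKM, while Timd4 stood at 35.6 and 108.2 FPKM. Their part in the differences between genotypes was not tested.

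Fos, the gene with the seed match, was lower in KO than in WT naive cells (ratio 0.718, difference -0.45, interval -0.61 to -0.28). With LPS the ratio was 1.15, with an interval of the difference that spans 0 (-0.08 to 0.41). In tolerized cells Fos stood 2.67 times higher in KO, from about 176 fragments against 65 in WT, a difference of 0.98 (0.71 to 1.24). Its difference over all conditions was 0.23 ± 0.28 (adjusted p = 0.88). Atf3 was at 0.704 of WT in KO naive cells, 1.46 times WT with LPS and 1.799 times WT in tolerized cells. Fosl1 in KO LPS cells stood at 0.524 of WT. Junb and Jund were higher in KO in each of the 3 conditions, by 1.12 to 1.32 and 1.14 to 1.36 times, and Fosl2 lay between 0.842 and 1.15 times WT.

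None of the 9 genes passed the test of KO against WT, nor did any of 10136 genes (0.0% in either direction, with 707 at an unadjusted p under 0.05 in the same limma fit). Without the WT tolerized library 152 genes rose and 84 fell, and without the KO tolerized library 155 rose and 84 fell, none of them among the 9. By size, Egr1 was at least 2-fold higher and Egr2 lower in KO LPS than in WT LPS cells, where 4.19% of genes were higher and 3.04% lower, and after rescaling the difference of Egr2 was -0.92. No member passed 2-fold between naive libraries (3.95% higher and 3.12% lower) or between tolerized libraries (1.81% and 0.764%), where Fos lay just under that size at 0.98 because the rule adds 1 to each FPKM. Whether the effect of LPS or of tolerization differed between the genotypes could not be tested with 1 library per group.

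**Figure D4:**
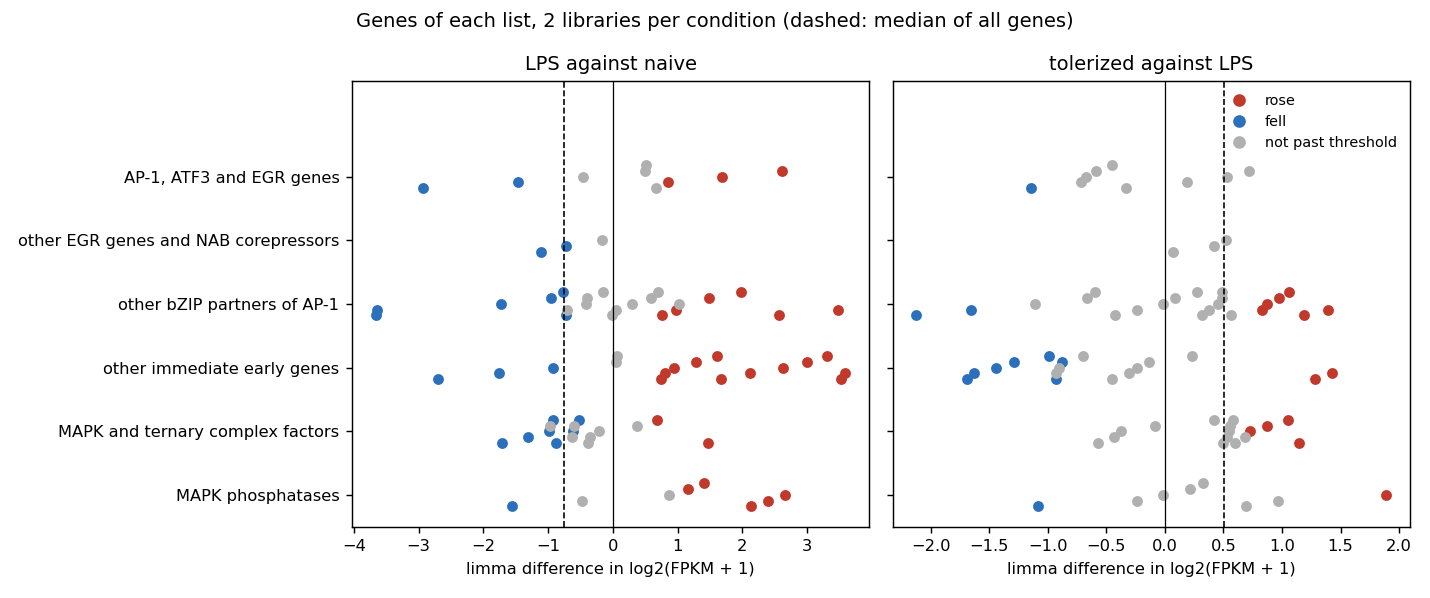
Difference in log2(FPKM + 1) from the limma fit (x axis) for each tested gene of 6 lists (rows), with LPS against naive on the left and tolerized against LPS on the right. Points are genes, red where they rose, blue where they fell and grey where the test was not passed, and the dashed line is the median of all genes, at -0.76 on the left and 0.51 on the right.

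Other genes of the same early response were counted from fixed lists. After rescaling 1765 of all 10136 genes rose and 3073 fell with LPS. Between tolerized and LPS cells 1215 of all genes rose and 750 fell after rescaling. The rescaled counts of the lists below are to be read beside these numbers. Of 17 tested immediate early genes outside the 10, 12 rose and 3 fell with LPS, against 8.74% and 54.4% of all genes, with a median of 1.28. Ier3, a stress-response gene, rose by 3.59 ± 0.35 (adjusted p = 0.00064), and Gadd45b, an activator of MAP kinase signalling, rose by 3.52 ± 0.40 (adjusted p = 0.00091). Myc rose by 3.31 and the nuclear receptor gene Nr4a3 by 3.005. Nr4a3 stood at 1.19 and 1.47 FPKM in WT and KO naive cells and passed the filter on low values through the libraries with LPS. Klf10 fell by 2.70, Klf2 by 1.76 and Srf, whose product binds the CArG box, by 0.92, which became -0.36 after rescaling (adjusted p = 0.18). Between tolerized and LPS cells 7 of the 17 fell and 2 rose, or 11 and 2 after rescaling, against 4.32% of all genes falling and 36.8% rising. Csrnp1 fell by 1.69, Nr4a3 by 1.63, Zfp36, whose product destabilizes cytokine mRNA, by 1.44 and Myc by 1.29, while Klf10 rose by 1.42 and Srf by 1.28. Against naive cells 6 rose and 2 fell, beside 7.41% and 19.8% of all genes.

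Among 22 other zipper factors that can pair with or compete against AP-1 proteins, 6 rose and 6 fell with LPS, or 9 and 3 after rescaling, beside the same 8.74% and 54.4% of all genes. Batf2 rose by 3.48, the small Maf gene Maff by 2.57 and Batf by 1.99. Cebpa, a myeloid lineage factor, fell by 3.64. In tolerized against LPS cells 6 rose and 2 fell, the falls being Batf2 (by 2.12) and Mafk (by 1.65), and after rescaling 0 rose and 3 fell. Of all genes 36.8% rose and 4.32% fell in that contrast. Against naive cells 4 rose and 2 fell, beside 7.41% and 19.8% of all genes. Of 3 tested genes among Egr3, Egr4 and the EGR corepressors Nab1 and Nab2, 2 fell and 0 rose with LPS. Of all genes 54.4% fell and 8.74% rose, and the median was -0.72 for the list and -0.76 for all genes. Nab2 fell by 1.11 and Egr3 by 0.72, and neither passed after rescaling (adjusted p = 0.22 and 0.31). None of the 3 passed in tolerized against LPS cells, where 36.8% of all genes rose and 4.32% fell. Against naive cells 0 rose and 1 fell, beside 7.41% and 19.8% of all genes. The fall was that of Nab2, by 1.04 (-0.87 after rescaling, adjusted p = 0.096).

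The upstream MAP kinase pathway and ternary complex factor genes together had a median of -0.61 with LPS, against -0.76 for all genes. Of 16 tested MAP kinase pathway and ternary complex factor genes, 2 rose and 7 fell with LPS, or 3 and 1 after rescaling, beside 8.74% and 54.4% of all genes. Map2k1 rose by 1.47 and Map3k8, the kinase that links LPS to ERK, by 0.68, and Mapk3, which encodes ERK1, fell by 1.71. Between tolerized and LPS cells 4 rose and 0 fell, or 1 and 3 after rescaling, a smaller share of rises than the 36.8% of all genes. Against naive cells 1 rose and 0 fell, beside 7.41% and 19.8% of all genes. Of 8 tested MAP kinase phosphatases, which switch these kinases off, 5 rose and 1 fell with LPS, against 8.74% and 54.4% of all genes. Dusp16 rose by 2.66, Dusp2 by 2.399 and Dusp4 by 2.14, and Dusp6, an ERK phosphatase, fell by 1.56. Dusp14, also among the rises, stood at 0.154 and 0.742 FPKM in WT and KO naive cells. It passed the filter on low values through the libraries with LPS. Between tolerized and LPS cells Dusp6 rose by 1.89 and Dusp2 fell by 1.08. Against naive cells 6 rose and 0 fell, including Dusp1, by 1.84, where 7.41% of all genes rose and 19.8% fell. No gene of these lists passed the test of KO against WT.

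The genes whose level ran most like each of the 9 across the 6 libraries were ranked, from a minimum of 10 FPKM in any library, by the root mean square difference of centred log2(FPKM + 1) values. For Fosl2 the nearest were Dnajb6 (0.05), Ppan (0.06) and Dnaja1 (0.07). For Jun they were Zswim6 (0.08), Luzp1 (0.09) and Fbxw7 (0.11), and for Junb they were Hmgn3 (0.12), Larp1 (0.13) and Nfkbid (0.14). Jund lay nearest to Chmp4b (0.11), Tgif1 (0.12) and Irf5 (0.12), Egr1 to Rgs14 (0.15), Apobec3 (0.20) and Hk3 (0.21), and Atf3 to Gypc (0.17), Rnf135 (0.19) and Tmcc3 (0.19). Fos lay nearest to Psap (0.17), Gna15 (0.24) and Cysltr1 (0.25), and Egr2 to Glul (0.19), 1810011H11Rik (0.26) and Adi1 (0.29). For Fosl1 the nearest were Il4i1 (0.29), Dusp16 (0.32) and Batf (0.34). Batf is a zipper partner of Jun proteins and Dusp16 a MAP kinase phosphatase, and both are in the lists above. Their rise with LPS follows from being ranked by likeness to Fosl1 in the same libraries.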

How the data were processed

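Poly-A mRNA libraries were sequenced, and each library's deposited table gives per gene an FPKM with a lower and an upper bound, per the file headers. The submitters' processing notes name bcl2fastq 1.8.4, TopHat, Cufflinks and the mouse build mm9, while further versions, annotation and filters were not given in the sources used here. Samples were grouped by title. Of 23699 rows, 22162 were kept after rows not marked OK in a library (349), rows of symbols at more than 1 locus (712) and small RNA genes (802) were left out. FPKM values were analysed as log2(FPKM + 1), which understates changes of low genes. The 10136 genes that reached 2 FPKM in 2 or more libraries entered limma 3.58.1 (R 4.3.3), with additive terms for genotype and condition, a trended prior, two-sided tests and Benjamini-Hochberg adjustment at 0.05. There were 2 residual and 4.2 prior degrees of freedom. A response that differs between genotypes adds to the residual, and the p-values reflect spread between libraries that may be technical. The fit was tested on simulated data. Pairs of single libraries used a size rule, a difference of at least 1 in log2(FPKM + 1) among genes with 2 FPKM in either library, and 95% counting intervals from the deposited bounds. Implied fragments are the squared ratio of a value to its standard error, with the interval taken as 2 standard errors. The motif core TGACGT was added after the promoters were seen. Alternatives were a pseudocount of 0.1, no filter, median-of-ratios rescaling, no trend and leaving out each library. Members and lists were chosen with earlier results of these data known, and named list genes are those with the largest differences past the threshold, up to 4 per list and contrast. Klf10 and Klf2 with LPS, Srf, Myc in tolerized cells, Batf, Map3k8, Plau with LPS and Nos2 lie outside that rule. So do Dusp14 and Il12b with LPS, named for their low naive levels, and all were chosen with values already seen. Of the genes that rule names, 1 is not reported here. The 3 genes of like pattern per member are those ranked nearest. Seed and motif searches used RefSeq and GENCODE sequences of GRCm38, and no coordinates were moved between builds.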

Additional observations from a re-analysis of the deposited data

Results flagged for a closer look

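Results in which the WT and KO libraries moved in opposite directions under the same contrast are given as differences of log2(FPKM + 1). None of these differences between genotypes was tested, since each rests on 1 library per group. Atf3 with LPS was at -0.03 in WT and 1.02 in KO (KO minus WT 1.04), and in tolerized against naive cells at -0.84 and 0.50 (1.34). Jun with LPS was at -0.997 in WT and 0.06 in KO (1.06), and in tolerized against LPS cells at 0.53 and -0.16 (-0.69). Fosl1 in tolerized against LPS cells was at -0.05 in WT and 1.11 in KO (1.15). Egr1 in tolerized against naive cells was at -0.03 in WT and 0.46 in KO (0.49), and Jund at 0.03 and -0.18 (-0.21). In 5 of these 7 the counting interval of a genotype spanned 0, and in Atf3 of tolerized against naive cells and Jun of tolerized against LPS cells both intervals lay clear of 0. After rescaling 3 of the 7 no longer ran in opposite directions, with Atf3 with LPS at 0.54 in WT and 1.73 in KO, Egr1 in tolerized against naive cells at 0.11 and 0.63, and Jund at 0.19 and 0.0032.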

How the results depend on the processing

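The 36 differences of the 9 genes kept their direction and side of the threshold with a pseudocount of 0.1 and without the trend. Without the filter on low values 8 of 9 calls were lost, with differences unchanged, and the numbers of all genes called became 463 rising with LPS (886 with the filter), 25 rising and 3 falling in tolerized against LPS cells (3733 and 438), and 31 rising and 14 falling against naive cells (751 and 2002). Rescaling gave 1765 rising and 3073 falling with LPS (886 and 5511) and 1215 and 750 in tolerized against LPS cells (3733 and 438). By the 2-fold rule it gave 1409 higher and 2476 lower with LPS in WT (832 and 4065), 1304 and 1923 in KO (703 and 4245), 919 and 799 for WT tolerized against LPS (2001 and 437), and 923 and 848 for KO (2307 and 414). With each library left out in turn, tolerized against LPS cells had 301 (without KO LPS) to 4133 genes rising and 96 (without KO LPS) to 566 falling. Against naive cells 485 (without WT naive) to 721 rose and 1007 (without WT tolerized) to 1711 fell. For KO against WT 0 to 155 rose and 0 to 84 fell.

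No member that passed changed sign. Rescaling turned Jun to 0.15 with LPS and -0.26 in tolerized against LPS cells, and Jund to 0.10 and Atf3 to 0.0015 in tolerized against naive cells. With a library left out, the LPS difference of Atf3 ranged from -0.10 to 1.09. In tolerized against LPS cells the ranges were -0.18 to 1.24 for Fosl1, -0.25 to 0.63 for Jun and -0.93 to 0.034 for Egr1. Against naive cells they were -0.64 to 0.080 for Jun, -0.19 to 0.038 for Jund, -0.77 to 0.42 for Atf3 and -0.21 to 0.64 for Egr1. For KO against WT they were -0.14 to 0.57 for Fos, -0.26 to 0.58 for Fosl1, -0.44 to 0.090 for Jun and -0.66 to 0.10 for Egr2. Where a library was left out, its partner in the condition was assumed to vary like the others. The cause of these changes was not tested. No paired analysis was possible because each group had 1 library and the labels carry no replicate numbers. Depth limits Fosb, at 2 to 8 fragments a library, and Fosl1 in naive cells.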

Other observations

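Genes described elsewhere as AP-1 targets did not follow 1 course. Of 9 tested, 5 rose and 1 fell with LPS, against 8.74% and 54.4% of all genes. The rises were led by the protease inhibitor gene Timp1 (by 3.35 ± 0.87, limma adjusted p = 0.016), the collagenase gene Mmp13 (2.58) and Mmp3 (1.87). Mmp3 started from 0.0 FPKM in WT and 0.61 FPKM in KO naive cells and passed the filter on low values through the libraries with LPS. Plau, which encodes urokinase, fell by 1.26 (-0.63 after rescaling, adjusted p = 0.16). In tolerized against LPS cells Mmp13 rose by 2.28 and Mmp3 by 2.03, and Plau fell by 1.53, where 36.8% of all genes rose and 4.32% fell. After rescaling 0 of the 9 rose and 3 fell in that contrast, with Mmp13 at 1.81 (adjusted p = 0.052) and Mmp3 at 1.64 (adjusted p = 0.098). Against naive cells 3 rose and 1 fell, beside 7.41% and 19.8% of all genes.

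All 6 cytokine and enzyme genes described as repressed by ATF3 rose with LPS, by 5.89 (Nos2) to 10.04 (Il6), against 8.74% of all genes. In WT and KO naive cells Nos2 stood at 0.075 and 0.45 FPKM and Il12b at 0.25 and 0.72 FPKM. Both passed the filter on low values through the libraries with LPS. Il6 and Ch25h were under 2 FPKM in WT naive cells and also needed such a library to pass. This list was chosen with earlier results of these data known, and the part of Atf3 in these differences was not tested. In tolerized against LPS cells 3 of the 6 genes passed, where 4.32% of all genes fell: Tnf fell by 3.58, Il12b fell by 2.50 and Ch25h fell by 1.32.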
